A study of Mus musculus with 17 samples.

Results

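The members described here were the ATP-binding cassette (ABC) transporters of subfamilies Abca to Abcg, the organic anion transporting polypeptides (Slco) and the Slc22 carriers. Members were taken by symbol, without pseudogenes and without the bile acid transporters Abcb11, Abcc3, Slco1a1 and Slco1b2, and needed a count above 0 in at least 1 library. The rule gave 78 genes of 29999 gene symbols with a count above 0 in the series, of which 77 were found in liver, 67 in hepatocytes and 66 in both. By subfamily there were 14 Abca, 8 Abcb, 9 Abcc, 4 Abcd, 4 Abce and Abcf, 6 Abcg, 10 Slco and 23 Slc22 members. RNA sequencing of mouse liver and of isolated mouse hepatocytes made up the series, which concerns the sphingomyelin synthase family and fatty liver disease. The liver experiment compared 4 libraries of SMSrKO mice, which lack the sphingomyelin synthase-related protein SMSr (gene Samd8), with 4 WT libraries, and mice of both genotypes had received a high-fat diet with fructose in the water for 16 weeks. The hepatocyte experiment held 3 libraries each of Sms1/Sms2/Smsr-tKO (tKO), Sms1/Sms2-dKO (dKO) and WT mice aged 2 months, whose cells were released with collagenase. Thus the tKO and dKO groups both lack the sphingomyelin synthases SMS1 and SMS2 (genes Sgms1 and Sgms2), and the tKO group lacks SMSr as well. No label names the promoter or cell type of a Cre, the sex of the mice or their strain. Labels number the libraries without saying that each came from its own animal, although the protocol gives 3 mice per hepatocyte group, so the p-values below rest on the spread among these libraries, and that spread may be technical.

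Transporters of these families decide what a hepatocyte takes up from blood, what it returns to blood and what it sends into bile. ABC proteins hydrolyse ATP to push substrates across a membrane, and those of the bile canaliculus export phospholipid, sterols, conjugated bilirubin and drugs. Slco and Slc22 proteins carry organic anions, organic cations and carnitine, mostly into the cell and without hydrolysing ATP. A few members are no transporters: Abce1 and the Abcf proteins act on ribosomes, and Abcc8 and Abcc9 are regulatory subunits of potassium channels.

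Promoter windows are shown first for 2 sets of members that lie near each other in the genome. The first set is Abcg5 and Abcg8, which together form the sterol exporter of the canaliculus and start back to back on opposite strands. The second is 4 carriers of the Slc22 cluster on chromosome 19, of which Slc22a27, Slc22a29 and Slc22a30 are close copies of each other in coding sequence. Each window is 300 bases long, 250 before and 50 after the gene start, and was taken from RefSeq on build GRCm38.p6. Motifs were searched on both strands and are marked in capitals. The TATA box was searched as TATAAA, which reads TTTATA where it lies on the other strand. The box named after its letters was searched as CCAAT, which then reads ATTGG, and the STAT site was searched as TTCNNNGAA. The window of Abcg5 is chr17:84682962-84683261 on the minus strand. That of Abcg8 is chr17:84682871-84683170 on the plus strand, the nearer to Abcg5 of 2 windows that RefSeq gives for this gene. Both are written 5′ to 3′ on their own strand.
Abcg5: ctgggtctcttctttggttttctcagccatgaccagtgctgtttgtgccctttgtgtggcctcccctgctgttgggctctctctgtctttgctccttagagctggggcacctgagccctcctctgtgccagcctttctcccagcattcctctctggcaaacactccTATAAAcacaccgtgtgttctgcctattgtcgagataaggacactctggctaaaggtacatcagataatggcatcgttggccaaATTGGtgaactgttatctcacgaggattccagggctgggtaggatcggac
Abcg8: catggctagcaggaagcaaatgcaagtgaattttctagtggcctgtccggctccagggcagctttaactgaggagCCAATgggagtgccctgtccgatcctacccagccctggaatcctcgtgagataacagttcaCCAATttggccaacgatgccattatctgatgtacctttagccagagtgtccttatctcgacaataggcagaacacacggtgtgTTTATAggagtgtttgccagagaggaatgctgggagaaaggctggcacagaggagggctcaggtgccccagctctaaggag

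The gene starts of Abcg5 and Abcg8 lay 110 bases apart, and 209 bases were common to both windows. The same TATAAA bases, chr17:84683090-84683095, stood 31 bases before the Abcg8 start and 84 bases before the Abcg5 start. A CCAAT box at chr17:84683007-84683011 was common to both windows as well, and Abcg8 held another 175 bases before its start. Of all 32851 RefSeq windows, 13.6% held TATAAA and 37.4% held CCAAT, so these matches describe the windows and show no binding. Promoter windows were found for 62 of the 78 members. Those members had 74 windows with a median GC content of 55.0%, against 52.7% over all windows.

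The 4 chromosome 19 windows are all on the minus strand. They are chr19:7802618-7802917 for Slc22a26, chr19:7965978-7966277 for Slc22a27, chr19:8218851-8219150 for Slc22a29 and chr19:8405056-8405355 for Slc22a30.
Slc22a26: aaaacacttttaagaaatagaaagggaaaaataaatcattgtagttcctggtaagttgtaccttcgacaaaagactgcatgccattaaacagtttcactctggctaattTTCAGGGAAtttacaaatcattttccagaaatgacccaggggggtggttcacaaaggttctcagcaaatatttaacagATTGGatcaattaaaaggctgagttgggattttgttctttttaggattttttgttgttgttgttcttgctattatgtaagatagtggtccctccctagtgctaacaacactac
Slc22a27: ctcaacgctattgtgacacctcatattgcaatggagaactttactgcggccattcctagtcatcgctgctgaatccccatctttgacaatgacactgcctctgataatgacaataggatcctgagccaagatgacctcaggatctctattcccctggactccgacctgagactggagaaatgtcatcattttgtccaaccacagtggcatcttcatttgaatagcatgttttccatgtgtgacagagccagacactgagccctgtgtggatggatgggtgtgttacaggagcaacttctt
Slc22a29: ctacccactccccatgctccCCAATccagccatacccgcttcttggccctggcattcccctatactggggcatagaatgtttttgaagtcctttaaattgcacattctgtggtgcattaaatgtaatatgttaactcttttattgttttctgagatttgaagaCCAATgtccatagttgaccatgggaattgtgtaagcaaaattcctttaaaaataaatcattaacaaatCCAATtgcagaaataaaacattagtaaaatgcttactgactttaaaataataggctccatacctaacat
Slc22a30: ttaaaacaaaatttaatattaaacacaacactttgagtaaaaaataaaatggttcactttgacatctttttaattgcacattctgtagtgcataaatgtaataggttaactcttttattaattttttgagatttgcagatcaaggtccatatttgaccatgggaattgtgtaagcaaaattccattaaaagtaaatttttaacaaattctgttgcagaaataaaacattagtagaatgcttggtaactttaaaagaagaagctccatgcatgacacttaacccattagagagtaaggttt

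Coding sequences of Slc22a27 and Slc22a29 were 97.3% identical in a gapped alignment, while their promoter windows were 53.7% identical. Slc22a29 and Slc22a30 were 92.2% identical in coding sequence and 71.7% in the window. Slc22a26 stood further off, with 74.3% to 74.7% coding identity to the other 3 carriers. Slc22a29 held 3 CCAAT boxes and Slc22a26 held 1 and a TTCNNNGAA match, a motif found in 8.3% of all windows. None of the motifs searched was found in the windows of Slc22a27 and Slc22a30. The search also covered a GC box (GGGCGG, in 35.7% of all windows), an AP-1 site (TGACTCA, 5.2%) and an HNF4 site (CAAAGTCCA, 0.475%), none of which lay in the 6 windows. Near-identical copies can split reads between them: 30.5% of the 50-base stretches of the Slc22a27 transcript, 30.5% of Slc22a29, 51.8% of Slc22a30, 17% of Abcb1a and 18.3% of Abcb1b occur in the transcript of another gene, and values of these members are uncertain to that extent. The same holds for Slc22a28 (53.9%), Slc22a5 (27.1%) and Slc22a21 (24.2%). In the annotation of the liver files Abcg5 and Abcg8 overlap on opposite strands, and the sources used here do not give the strand setting of the counting. Their reads may not be fully separated there.

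Liver libraries held 24391627 to 47351126 counts each, and hepatocyte libraries 9221488 to 9665309 expected counts. Libraries of a hepatocyte group differed little, with a biological coefficient of variation of 3.52% against 20.3% in liver. Whole-gene levels of the targeted genes cannot check the genotypes, since the sources used here do not say which part of each gene was removed, and groups are named as labelled. Samd8 stood at 50.4 to 59.0 CPM, counts scaled to the library size, in SMSrKO livers and 38.0 to 51.7 CPM in WT livers. In hepatocytes Samd8 stood at 97.6 to 104 CPM in tKO, 75.1 to 86.9 in dKO and 66.0 to 73.1 in WT. Sgms1 stood at 55.6 to 62.2, 85.1 to 96.2 and 45.9 to 52.2 CPM in tKO, dKO and WT, and Sgms2 at 144 to 158, 133 to 164 and 175 to 191 CPM. One protocol in the labels speaks of subcutaneous fat in the SMSrKO mice, although the tissue is labelled as liver. Alb stood at 35390 to 62530 CPM in those libraries, and 5 adipocyte markers summed to at most 1.89 CPM in SMSrKO and 2.55 CPM in WT.

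Levels per length differed in order between the WT groups. In WT liver the sterol exporter gene Abcg5 stood at 218 ± 41.8 TPM, the conjugate exporter Abcc2 (Mrp2) at 213 ± 22.3 TPM and the peroxisomal fatty acid transporter Abcd3 at 210 ± 46.6 TPM (SD, n = 4), and these 3 did not differ beyond their spread. In WT hepatocytes the ribosome recycling factor Abce1 stood at 80.1 ± 1.03 FPKM and Abcc2 at 75.6 ± 1.2 FPKM (SD, n = 3). Abcg5 was far down the order in WT hepatocytes, at 3.37 ± 0.463 FPKM, and Abcg8 stood at 138 ± 24.9 TPM in WT liver and 1.49 ± 0.396 FPKM in WT hepatocytes. In contrast, Abce1 was lower in the order of WT liver, with 23.1 ± 3.09 TPM. Liver and hepatocyte libraries differ in diet, age, isolation and processing, which cannot be told apart here, so these levels are set side by side without a test.

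**Figure D1:**
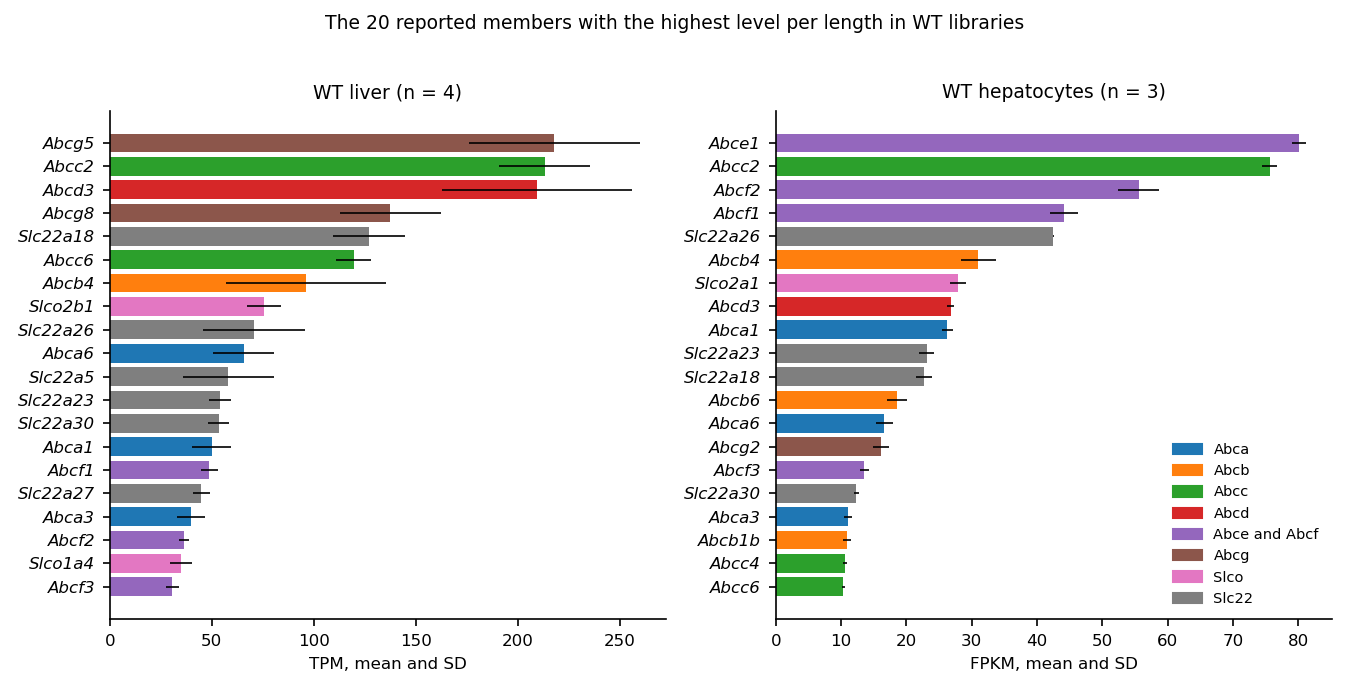
Mean level per length (TPM in WT liver, FPKM in WT hepatocytes, bars with SD) of the 20 reported members with the highest level in each, coloured by subfamily. Abcg5 and Abcg8 were near the top in liver only, and Abce1, Abcf2 and Abcf1 near the top in hepatocytes only.

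By subfamily, Slc22 held the largest share of the summed per-length level of all members in liver, 35.5 ± 2.0% in SMSrKO and 35.9 ± 1.83% in WT (SD, n = 4 each). Its share in hepatocytes was 23.6 ± 0.389% in tKO, 26.3 ± 0.144% in dKO and 27.4 ± 0.594% in WT (SD, n = 3 each). Abce and Abcf together held 25.2%, 24.5% and 25.2% of it in tKO, dKO and WT hepatocytes, against 4.58% in SMSrKO and 5.32% in WT livers. The Abcg share was 15.5% in SMSrKO and 14.9% in WT livers and 2.75%, 2.82% and 2.75% in tKO, dKO and WT hepatocytes. These shares rest on levels per length: on CPM, which favours long transcripts, Slc22 held 19.0% in SMSrKO and 18.8% in WT livers, and Abcc held the largest share, 23.1% in SMSrKO and 22.6% in WT livers. Summed Abcb levels were 109 to 112 FPKM in tKO, 94.2 to 96.7 in dKO and 84.6 to 92.6 in WT hepatocytes, without overlap between the 3 groups. Likewise the summed Slco level was 135 to 168 TPM in SMSrKO and 109 to 131 TPM in WT livers.

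In hepatocytes, the loss of SMS1, SMS2 and SMSr together, or of SMS1 and SMS2, went with changes in a wide range of members and in both directions. A filter on low counts left 51 members, which were tested with edgeR's quasi-likelihood test and called at an adjusted p under 0.05 over all 11471 genes tested. Of these, Abcc9, Abcg1 and Slco3a1 passed the filter only through the knockout groups and Slc22a29 only through dKO, so their calls, included in the counts, are not independent of it where a group below the filter is compared. Against WT, 31 of the 51 were called in tKO hepatocytes, 16 higher and 15 lower, where 47.4% of all genes tested were called (25.6% higher and 21.8% lower). In dKO hepatocytes 27 were called, 15 higher and 12 lower, beside 44% of all genes (24% higher and 20% lower). Between tKO and dKO hepatocytes 23 were called, 10 higher and 13 lower in tKO, beside 29.5% of all genes (14.3% higher and 15.2% lower). The median log2 fold change of the tested members was -0.04 for tKO against WT, -0.03 for dKO against WT and -0.01 for tKO against dKO, against -0.00, -0.01 and 0.00 over all genes tested. A change of at least 2-fold among these calls was rarer: 6 members in tKO and 6 in dKO against WT, and 3 in tKO against dKO, beside 7.82%, 7.4% and 2.72% of all genes. Groups did not overlap for 29, 32 and 33 of the 51 members in these comparisons, beside 53.4%, 51.9% and 39.8% of all genes. The tKO and dKO comparisons share the WT libraries, and the comparison of tKO with dKO shares libraries with both, so they are given side by side and are not independent. In such bulk samples, fewer cells of a type and less RNA per cell cannot be told apart.

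Since the libraries of a group were so alike, calls extend to small changes, down to 0.11 on the log2 scale. With the dispersion of the liver libraries put in place of their own, 9 members were called in tKO against WT (Abcb1a, Abcb1b, Abcc1, Abcc9, Abcd2, Abcg1, Slc22a26, Slc22a7 and Slco3a1). The same setting called 9 in dKO against WT (Abcb1a, Abcc1, Abcc12, Abcc9, Abcg1, Slc22a29, Slc22a7, Slco1a4 and Slco3a1). Here too the calls of Abcc9, Abcg1 and Slco3a1 against WT, and those of Slc22a29, are not independent of the filter. Between tKO and dKO the liver dispersion gave 5 called members (Abca8a, Abcc12, Abcg8, Slc22a27 and Slc22a29). Every other hepatocyte call of a member named below was lost with it.

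**Figure D2:**
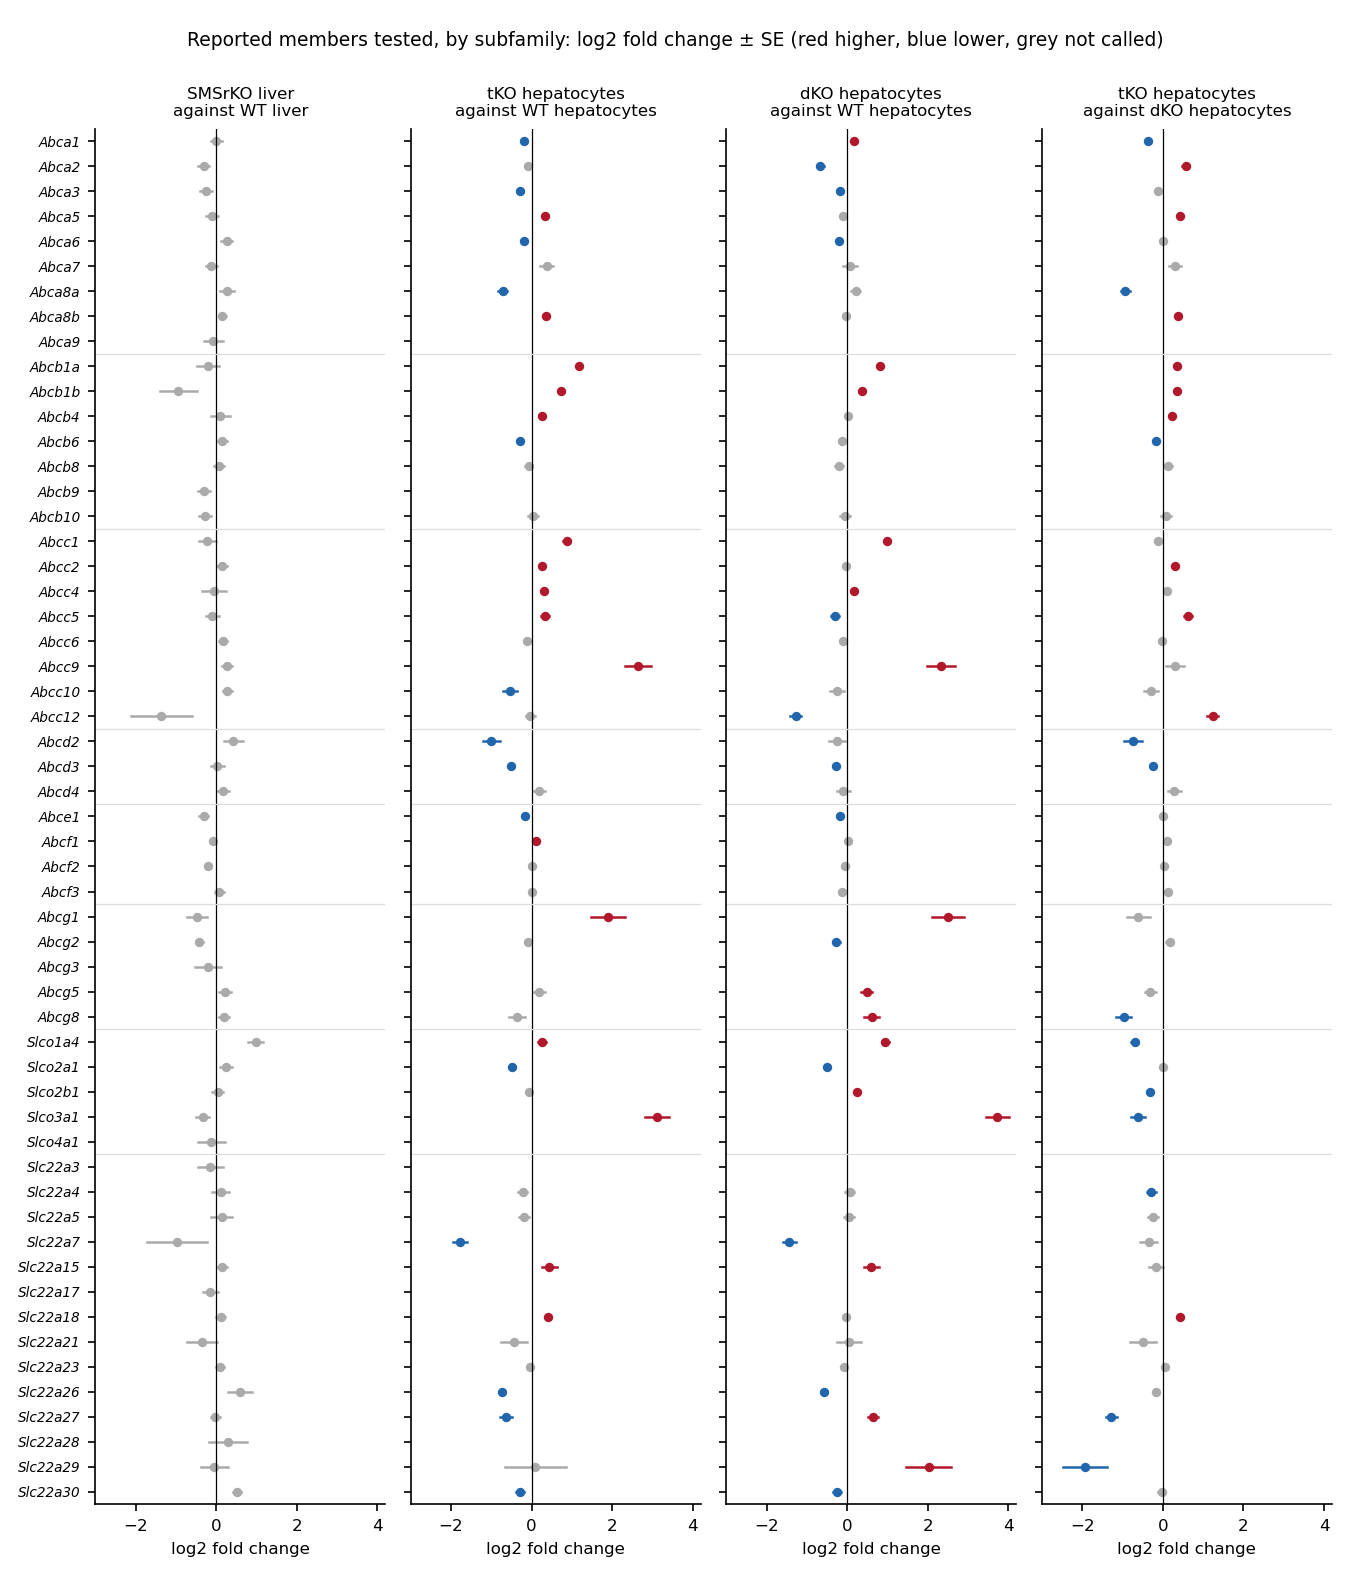
Log2 fold change with its SE for the reported members tested, in rows by subfamily, for SMSrKO against WT liver and for tKO against WT, dKO against WT and tKO against dKO hepatocytes. Red and blue points were called higher or lower at an adjusted p under 0.05 (0 in liver), and grey points were not called.

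Among exporters of the canaliculus, the P-glycoproteins Abcb1a and Abcb1b, which expel lipophilic drugs, were higher in both knockout groups and highest in tKO. Abcb1a, on chromosome 5 at 8660077 to 8748575, stood at 102, 94.5 and 101 CPM in tKO libraries, at 77.3, 78.5 and 75.5 CPM in dKO libraries and at 43.4, 41.2 and 47.2 CPM in WT libraries. All 3 groups were apart, with tKO above dKO and dKO above WT. The log2 fold change was 1.17 ± 0.06 (SE) for tKO against WT (edgeR adjusted p = 2.17e-29), 0.81 ± 0.06 for dKO against WT (2.53e-19) and 0.36 ± 0.06 for tKO against dKO (1.52e-07). Its neighbour Abcb1b, 88.0% identical in coding sequence, stood at 75.2, 75.2 and 84.7 CPM in tKO, 57.5, 60.8 and 64.7 CPM in dKO and 49.99, 46.5 and 44.5 CPM in WT libraries. Here too the 3 groups did not overlap, with log2 fold changes of 0.74 ± 0.06 in tKO and 0.38 ± 0.07 in dKO against WT, and 0.36 ± 0.06 between tKO and dKO (edgeR adjusted p = 4.83e-17, 2.11e-06 and 1.66e-06). Another gene of this chromosome 5 neighbourhood, Abcb4, flips phosphatidylcholine into bile. It stood at 157, 145 and 148 CPM in tKO, 123, 131 and 129 CPM in dKO and 138, 123 and 116 CPM in WT libraries, higher in tKO than in dKO by 0.23 ± 0.05 on the log2 scale (edgeR adjusted p = 1.30e-04) and than in WT by 0.25 ± 0.05 (1.86e-05).

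Abcc2, which exports conjugated bilirubin and glutathione conjugates, was the most abundant of the Abcc members, which leave out Abcc3 (522 to 658 CPM over the hepatocyte libraries). It was higher in tKO hepatocytes than in both other groups. Its values were 517, 476 and 466 CPM in tKO, 406, 405 and 376 CPM in dKO and 408, 413 and 399 CPM in WT libraries. Every tKO library lay above every dKO and WT library, with a log2 fold change of 0.30 ± 0.04 against dKO (edgeR adjusted p = 2.21e-09) and 0.26 ± 0.04 against WT (5.89e-08). For dKO against WT the edgeR test made no call for Abcc2. Abcg2, an exporter of urate and many drugs, stood at 29.3 to 35.3 CPM in tKO, 24.5 to 31.3 CPM in dKO and 31.0 to 35.6 CPM in WT libraries, with overlap between dKO and WT although dKO was called lower.

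Of 6 further Abcc exporters, which mostly return conjugates and nucleotides to blood, 4 were called in tKO against WT, 3 higher and 1 lower, and 4 in dKO against WT, 2 higher and 2 lower. The share of all genes called was 47.4% in tKO and 44% in dKO. Abcc1 (Mrp1), an exporter of glutathione conjugates and leukotriene C4 that is scarce in resting hepatocytes, stood at 41.6, 44.3 and 43.0 CPM in tKO, 48.3, 46.8 and 45.7 CPM in dKO and 21.8, 26.8 and 22.0 CPM in WT libraries. Both knockout groups lay far above WT, by 0.87 ± 0.08 in tKO and 0.99 ± 0.08 in dKO on the log2 scale (edgeR adjusted p = 8.64e-16 and 1.13e-18). Abcc12, a member without a well-known substrate, showed another pattern. It stood at 14.8, 14.6 and 16.1 CPM in tKO, at 6.73, 5.80 and 6.69 CPM in dKO and at 16.0, 16.0 and 14.6 CPM in WT libraries. Only the dKO libraries were low, by 1.28 ± 0.13 on the log2 scale against WT (edgeR adjusted p = 1.90e-13), and the tKO libraries were higher than dKO by 1.24 ± 0.13 (1.30e-12). The estimate for tKO against WT was -0.04 with a 95% interval of -0.26 to 0.18, and no call was made.

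Abcc5, an exporter of cyclic nucleotides, stood at 22.6, 23.9 and 23.0 CPM in tKO, 15.3, 15.7 and 13.8 CPM in dKO and 18.6, 17.4 and 19.3 CPM in WT libraries. The groups were again apart, with tKO above dKO by 0.63 ± 0.10 on the log2 scale (edgeR adjusted p = 2.32e-07). Abcc10 was lower in tKO than in WT, at 5.57, 3.75 and 5.59 CPM in tKO, 5.77, 5.91 and 6.58 CPM in dKO and 6.69, 7.78 and 7.15 CPM in WT libraries, by 0.53 ± 0.18 on the log2 scale (edgeR adjusted p = 0.00898). Without the tKO 8 library that change was -0.37 and was not called (adjusted p = 0.105).

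**Figure D3:**
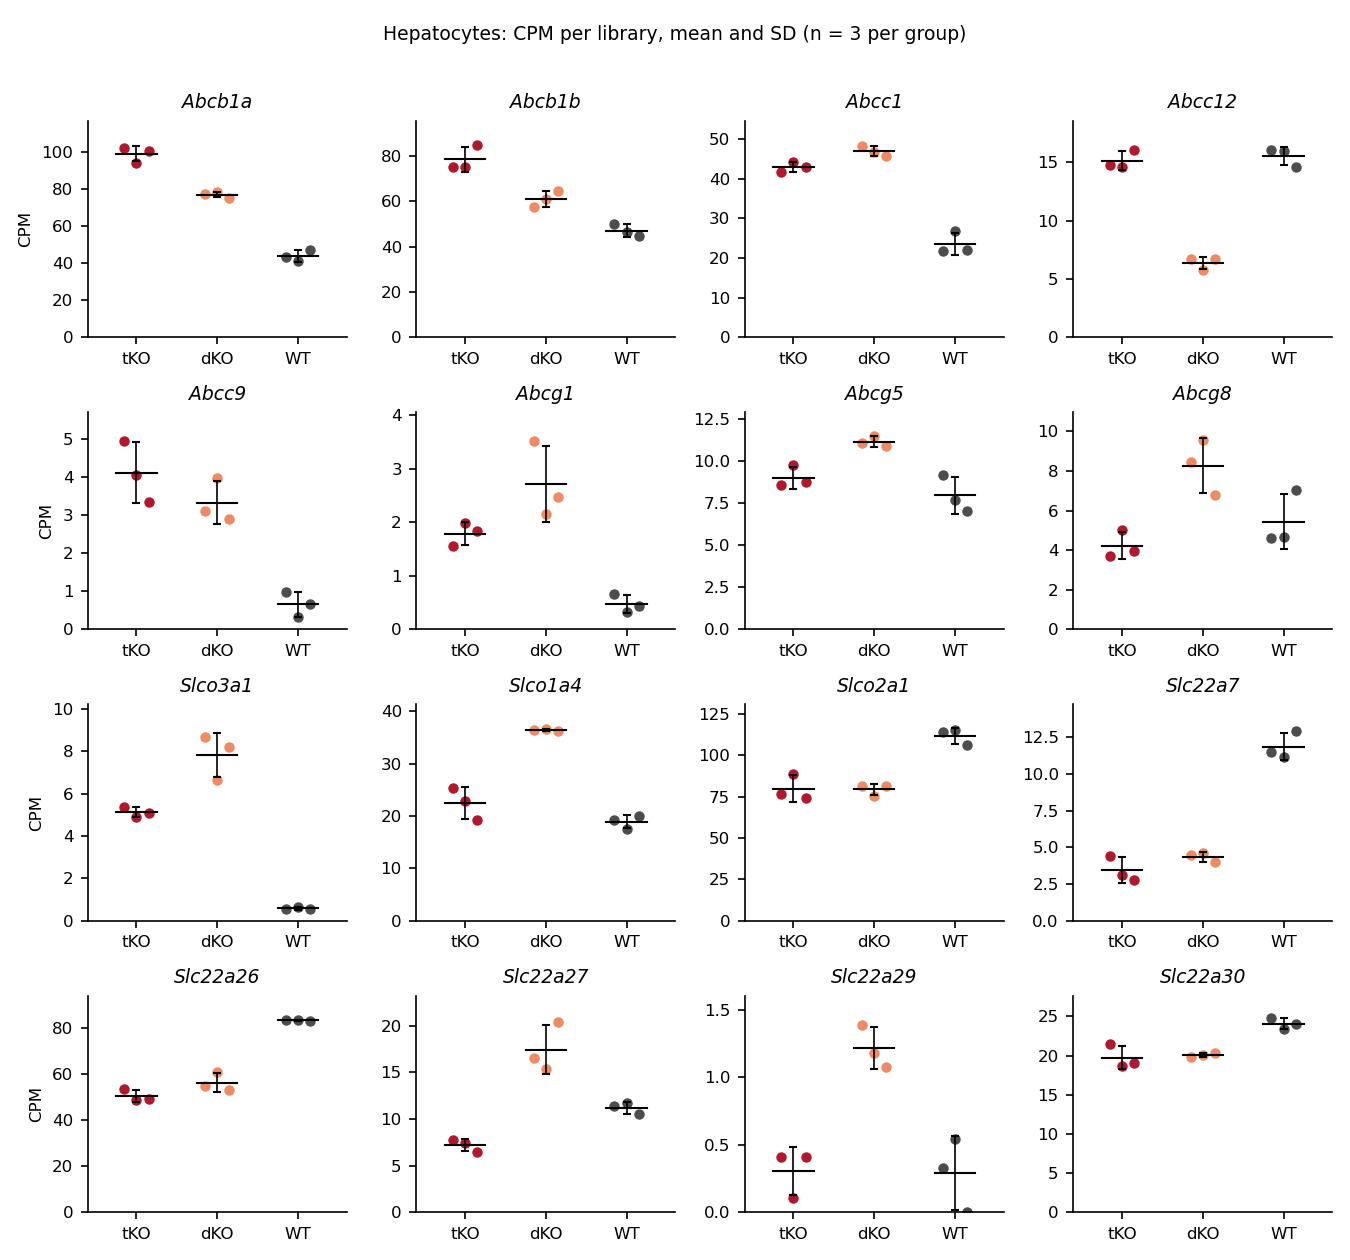
CPM of 16 members in each hepatocyte library, with the mean and SD of the 3 tKO, 3 dKO and 3 WT libraries. The P-glycoprotein genes Abcb1a and Abcb1b step down through tKO, dKO and WT, Abcc12 is low in dKO alone, Slco1a4 is highest in dKO, and Slc22a7 and Slco2a1 are highest in WT.

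Sterol and phospholipid exporters were called for 3 of 6 tested in tKO against WT, 2 higher and 1 lower, and for 4 of 6 in dKO against WT, all higher. Beside these, 47.4% of all genes were called in tKO, and 44% in dKO, where 24% were higher. Abcg5 stood at 8.56, 9.78 and 8.75 CPM in tKO, 11.1, 11.5 and 10.9 CPM in dKO and 9.21, 7.68 and 7.04 CPM in WT libraries. Its partner Abcg8 stood at 3.72, 4.99 and 3.97 CPM in tKO, 8.44, 9.57 and 6.79 CPM in dKO and 4.604, 4.65 and 7.04 CPM in WT libraries. The dKO libraries were highest for both genes, but for Abcg8 the lowest dKO library fell under the highest WT library. Against WT the dKO change was 0.49 ± 0.14 on the log2 scale for Abcg5 (edgeR adjusted p = 0.00348) and 0.60 ± 0.18 for Abcg8 (0.00336). In tKO against dKO, Abcg8 fell by 0.97 ± 0.18 on the log2 scale (edgeR adjusted p = 1.36e-05), whereas the edgeR test made no call for Abcg5 at -0.31 ± 0.14. The 2 genes start in the overlapping windows printed above.

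Abca1, which loads cholesterol and phospholipid onto apolipoprotein A-I, moved in opposite directions in the knockout groups. It stood at 248, 225 and 237 CPM in tKO, 324, 302 and 289 CPM in dKO and 282, 264 and 266 CPM in WT libraries. All tKO libraries were below and all dKO libraries above the WT libraries, by -0.19 ± 0.04 in tKO and 0.17 ± 0.04 in dKO on the log2 scale (edgeR adjusted p = 1.22e-04 and 6.41e-04), and by -0.37 ± 0.04 between tKO and dKO (4.09e-11). Abcg1, which sends cholesterol to high-density lipoprotein and is abundant in macrophages, was near the detection limit in WT cells. It stood at 1.55, 1.98 and 1.83 CPM in tKO, 3.52, 2.15 and 2.48 CPM in dKO and 0.66, 0.32 and 0.43 CPM in WT libraries, that is, 15 to 19 expected counts in tKO, 20 to 33 in dKO and 3 to 6 in WT. The tKO and dKO libraries all lay above WT, but Abcg1 passed the filter only through these knockout groups, so its fitted fold changes are not given. Markers of other cell types moved with Abcg1 and are given further on.

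Among 6 tested Abca proteins of intracellular membranes, 5 were called in tKO against WT, 2 higher and 3 lower, and 3 in dKO against WT, all lower. The shares over all genes were 47.4% called in tKO, and 44% in dKO, where 20% were lower. Abca2, which acts on lipids in endosomes and lysosomes, stood at 32.3, 31.4 and 38.2 CPM in tKO, 24.9, 23.1 and 20.4 CPM in dKO and 38.5, 34.9 and 35.0 CPM in WT libraries. As with Abcc12, only dKO was apart, lower than WT by 0.66 ± 0.09 on the log2 scale (edgeR adjusted p = 6.00e-10), and tKO was higher than dKO by 0.58 ± 0.09 (8.59e-08). Abca8a and Abca8b, neighbours on chromosome 11 that are 74.4% identical in coding sequence, went opposite ways in tKO. Abca8a stood at 9.70, 12.6 and 11.2 CPM in tKO, 19.5, 24.2 and 20.2 CPM in dKO and 16.99, 19.4 and 18.9 CPM in WT libraries, while Abca8b stood at 49.3, 47.9 and 48.7, at 42.1, 34.2 and 35.9 and at 40.7, 38.2 and 35.0 CPM. The tKO libraries were lowest for Abca8a, by -0.72 ± 0.12 against WT (edgeR adjusted p = 1.57e-07), and highest for Abca8b, by 0.36 ± 0.07 (3.01e-05). The lysosomal Abca5 stood at 42.9, 39.6 and 41.9 CPM in tKO, 31.0, 30.9 and 30.0 CPM in dKO and 34.5, 32.4 and 31.4 CPM in WT libraries, higher in tKO against WT by 0.34 ± 0.07 (edgeR adjusted p = 9.36e-05).

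Smaller falls were called for Abca3, the surfactant lipid transporter of lung, and for Abca6. Abca3 stood at 55.1 to 61.9 CPM in tKO, 61.9 to 64.4 CPM in dKO and 67.6 to 76.0 CPM in WT libraries, and in dKO it fell by 0.19 ± 0.06 on the log2 scale (edgeR adjusted p = 0.00946). Without the WT 1 library that change was -0.15 with an adjusted p of 0.0780. For Abca6, at 43.1 to 49.4 CPM in dKO and 51.5 to 57.6 CPM in WT libraries, the change of -0.20 ± 0.07 (edgeR adjusted p = 0.0185) was -0.15 without WT 1 (0.142) and -0.14 without dKO 6 (0.145), and neither was called. The tKO libraries of Abca6, at 44.3 to 52.3 CPM, overlapped with WT.

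No transporter of mitochondria or peroxisomes was called higher in either knockout group against WT, beside 25.6% of all genes in tKO and 24% in dKO. Abcb8 and Abcb10, both of mitochondria, were not called in any hepatocyte comparison. Abcb6, which serves porphyrin traffic, stood at 44.1, 48.7 and 43.3 CPM in tKO, 50.2, 50.4 and 53.2 CPM in dKO and 60.1, 56.8 and 50.8 CPM in WT libraries, lower in tKO than in WT by 0.30 ± 0.07 on the log2 scale (edgeR adjusted p = 1.46e-04). Abcd3, which imports branched-chain and bile acid precursors into peroxisomes, stood at 63.3, 71.1 and 60.2 CPM in tKO, 75.5, 73.8 and 81.1 CPM in dKO and 93.2, 93.8 and 90.4 CPM in WT libraries. The 3 groups did not overlap, and the fall was 0.51 ± 0.06 in tKO and 0.27 ± 0.06 in dKO against WT (edgeR adjusted p = 5.34e-12 and 7.62e-05). Its relative Abcd2, for very long unsaturated fatty acids, was scarcer, at 3.41, 2.91 and 2.03 CPM in tKO, 4.59, 5.16 and 4.21 CPM in dKO and 4.82, 5.41 and 6.501 CPM in WT libraries. In tKO it fell by 1.0 ± 0.21 on the log2 scale against WT (edgeR adjusted p = 5.43e-05) and by 0.74 ± 0.22 against dKO (0.00662), and the change against dKO was not called without tKO 9 (-0.55, adjusted p = 0.0797).

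Among the 4 translation factors 2 were called in tKO and 1 in dKO against WT, beside 47.4% and 44% of all genes. Abce1, which splits ribosomes after termination, stood at 274, 270.4 and 270.4 CPM in tKO, 262, 267 and 274 CPM in dKO and 308, 302 and 299 CPM in WT libraries. All knockout libraries lay below WT, by 0.16 ± 0.04 in tKO and 0.18 ± 0.04 in dKO on the log2 scale (edgeR adjusted p = 6.66e-04 and 1.61e-04). Abcf1 was called higher in tKO against WT by 0.11 ± 0.05 (edgeR adjusted p = 0.0454), with 148 to 157 CPM in tKO, 138 to 143 CPM in dKO and 132 to 145 CPM in WT libraries. This call was lost on leaving out WT 1, WT 2, dKO 5, dKO 6 or tKO 9, with adjusted p up to 0.275, and with DESeq2, without the count filter, with DESeq2 size factors and with the liver dispersion. Abcf2 and Abcf3 were not called in any comparison.

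Of the 4 Slco carriers tested, 3 were called in tKO and 4 in dKO against WT, beside 47.4% and 44% of all genes. Slco3a1, a carrier of prostaglandins and thyroid hormone on chromosome 7 at 74275419 to 74554780, was near the detection limit in WT cells. It stood at 5.37, 4.89 and 5.09 CPM in tKO, 8.65, 6.66 and 8.20 CPM in dKO and 0.55, 0.65 and 0.54 CPM in WT libraries, or 47 to 52 expected counts in tKO, 62 to 81 in dKO and 5 to 6 in WT. No group overlapped with another, but Slco3a1 passed the filter only through the knockout groups, so its fitted fold changes against WT are not given. Between tKO and dKO the Slco3a1 change was -0.61 ± 0.17 (edgeR adjusted p = 0.00401), which DESeq2 did not call (0.0608).

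Slco1a4 (Oatp1a4), which takes up bile acids, steroid conjugates and drugs, was raised mainly in dKO cells. Its values were 25.3, 22.8 and 19.3 CPM in tKO, 36.4, 36.7 and 36.2 CPM in dKO and 19.2, 17.5 and 19.9 CPM in WT libraries. The dKO libraries stood clear of both other groups, by 0.95 ± 0.09 against WT (edgeR adjusted p = 2.25e-15), and the tKO libraries lay below dKO by -0.70 ± 0.09 (1.60e-10). The tKO and WT libraries overlapped, and the change of 0.25 ± 0.10 between them (edgeR adjusted p = 0.0272) was not called without tKO 7 (0.15, adjusted p = 0.245), without WT 2 (0.20, 0.138) or without tKO 8 (0.24, 0.0651). The prostaglandin transporter Slco2a1 was the most abundant of the Slco members in hepatocytes, which leave out Slco1b2 (90.4 to 120 CPM over the hepatocyte libraries). Slco2a1 fell alike in both knockout groups, with 76.7, 89.0 and 74.1 CPM in tKO, 81.3, 75.5 and 81.6 CPM in dKO and 114, 115 and 106 CPM in WT libraries. Every WT library was above every knockout library, and the log2 fold change was -0.49 ± 0.06 in both comparisons (edgeR adjusted p = 1.11e-11 for tKO and 9.13e-12 for dKO). Between tKO and dKO its 95% interval was -0.11 to 0.12. Slco2b1 stood at 28.3, 33.0 and 31.1 CPM in tKO, 38.8, 38.2 and 38.2 CPM in dKO and 29.8, 34.3 and 32.8 CPM in WT libraries, and was lower in tKO than in dKO by 0.32 ± 0.08 (edgeR adjusted p = 8.41e-04).

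Slc22 carriers of organic anions were called for 4 of 5 tested in tKO against WT, all lower, and for 5 of 5 in dKO against WT, 2 higher and 3 lower, one of the higher ones being Slc22a29, described further on. Among all genes tested, 47.4% were called in tKO (21.8% lower) and 44% in dKO. Slc22a7 (Oat2), a basolateral carrier of nucleosides and organic anions on chromosome 17 at 46432185 to 46438477, stood at 4.44, 3.12 and 2.75 CPM in tKO, 4.49, 4.62 and 3.99 CPM in dKO and 11.5, 11.1 and 12.9 CPM in WT libraries. The knockout groups overlapped with each other and both lay well under WT, by 1.78 ± 0.17 in tKO and 1.44 ± 0.17 in dKO (a fall on the log2 scale, edgeR adjusted p = 5.80e-15 and 8.66e-12). Of the chromosome 19 cluster, whose 5 named members span bases 7781041 to 8405111, Slc22a26 fell in both groups. It stood at 53.6, 48.8 and 49.1 CPM in tKO, 55.1, 61.2 and 53.1 CPM in dKO and 83.8, 83.7 and 83.2 CPM in WT libraries, lower than WT by 0.73 ± 0.06 in tKO and 0.57 ± 0.06 in dKO (edgeR adjusted p = 1.47e-17 and 6.34e-13).

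Slc22a27, whose coding sequence is close to that of Slc22a29, stood at 7.74, 7.39 and 6.51 CPM in tKO, 16.6, 15.4 and 20.4 CPM in dKO and 11.4, 11.7 and 10.51 CPM in WT libraries. The tKO libraries were below and the dKO libraries above WT, by -0.63 ± 0.14 in tKO and 0.64 ± 0.12 in dKO on the log2 scale (edgeR adjusted p = 1.21e-04 and 9.57e-06), and tKO and dKO differed by -1.27 ± 0.13 (2.34e-13). Slc22a29 rested on few reads, 1 to 4.11 expected counts in tKO, 10.1 to 13.2 in dKO and 0 to 5.04 in WT libraries, and it passed the filter only through the dKO group, so its fitted fold changes are not given. Its levels were 0.41, 0.10 and 0.41 CPM in tKO, 1.39, 1.18 and 1.08 CPM in dKO and 0.33, 0.54 and 0 CPM in WT libraries. Slc22a30 stood at 21.5, 18.7 and 19.0 CPM in tKO, 19.9, 20.1 and 20.4 CPM in dKO and 24.8, 23.4 and 24.1 CPM in WT libraries, both knockout groups being lower than WT.

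Genes with higher RNA in female mouse liver also differed between the hepatocyte groups. A list of 9 such genes summed to 104 to 114 CPM in tKO, 691 to 708 CPM in dKO and 574 to 586 CPM in WT hepatocytes. In tKO against WT, 8 of its 8 tested genes were lower. Of these 8, Cyp2b9, Cyp2b13, Sult2a2 and Cux2 passed the filter only through the dKO and WT groups, so their calls in tKO are not independent of it. In dKO against WT, 3 of the 8 were higher and 4 lower, and the highest single level in dKO was that of Cyp3a41a, at 470 to 498 CPM in dKO and 304 to 327 CPM in WT. Of all genes tested, 25.6% were higher and 21.8% lower in tKO against WT, and 24% and 20% in dKO against WT. A list of 9 genes with higher RNA in male liver summed to 1160 to 1263 CPM in tKO, 239 to 255 CPM in dKO and 616 to 664 CPM in WT hepatocytes, most of it from Mup20 and Serpina1e. Its tested genes did not move together: of 4, 2 were higher and 2 lower in tKO against WT, and 1 was higher and 2 were lower in dKO against WT. Of the 4, Hsd3b5 passed the filter only through WT and Cyp4a12a only through tKO. The only count of the Y-linked genes of that list in any hepatocyte library was 1 count of Ddx3y in a WT library. The part of these genes' shift in the Slco1a4 and Slc22 results was not tested.

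Slc22a18, an imprinted gene, stood at 42.3, 44.9 and 44.2 CPM in tKO, 31.6, 33.9 and 32.6 CPM in dKO and 33.7, 35.1 and 31.3 CPM in WT libraries. Here tKO was above both other groups, by 0.39 ± 0.07 against WT and 0.42 ± 0.07 against dKO (edgeR adjusted p = 5.75e-06 and 2.90e-06).

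Abcc9 encodes SUR2, the regulatory subunit of ATP-sensitive potassium channels in muscle and vessel walls. It stood at 4.95, 4.06 and 3.36 CPM in tKO, 3.10, 3.98 and 2.91 CPM in dKO and 0.99, 0.32 and 0.65 CPM in WT libraries. Expected counts were 33 to 48.4 in tKO, 27.0 to 37.4 in dKO and 3 to 8.91 in WT libraries. Both knockout groups were above WT, but Abcc9 passed the filter only through them, so its fitted fold changes are not given. Markers of non-parenchymal cells were higher in the same libraries as Abcc9, Abcg1 and Slco3a1. The 12 endothelial markers summed to 117 to 126 CPM in tKO, 202 to 222 CPM in dKO and 34.9 to 39.9 CPM in WT. Against WT, 11 of 12 were higher in tKO and 12 of 12 in dKO, beside 25.6% and 24% of all genes. Among them, Clec4g, Lyve1, Tek, Egfl7 and Ptprb passed the filter only through the knockout groups. Of 12 macrophage markers, among them Vsig4 at 0 in every WT library, 6 were tested, but C1qa, C1qb, Cd5l and Lyz2 passed the filter only through the knockout groups. The list, mostly Cd68 and Mpeg1, summed to 366 to 388 CPM in tKO, 323 to 341 CPM in dKO and 121 to 137 CPM in WT. In tKO against dKO, however, 5 of the 6 had a fold change below 0 and 1 above, with a median log2 fold change of -0.62. Cd68 was at 237 to 267 CPM in tKO, 194 to 205 in dKO and 92.9 to 108 in WT hepatocytes, but at 13.1 to 34.2 CPM in the livers. Clec4f was at 0 to 0.11 CPM in WT hepatocytes and 144.5 to 342 CPM in the livers. Stellate cell markers summed to 35.6 to 39.2, 57.2 to 62.6 and 16.4 to 20.3 CPM in tKO, dKO and WT. The 4 of 5 tested that were called passed the filter only through the knockout groups, and 2 of the 10 markers, Lrat and Acta2, were at 0 in every WT library. The hepatocyte list summed to 54620 to 56880 CPM in tKO, 60270 to 61400 CPM in dKO and 71800 to 73600 CPM in WT. The part of these cell types in the values of Abcc9, Abcg1, Slco3a1 and the other members was not tested.

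**Figure D4:**
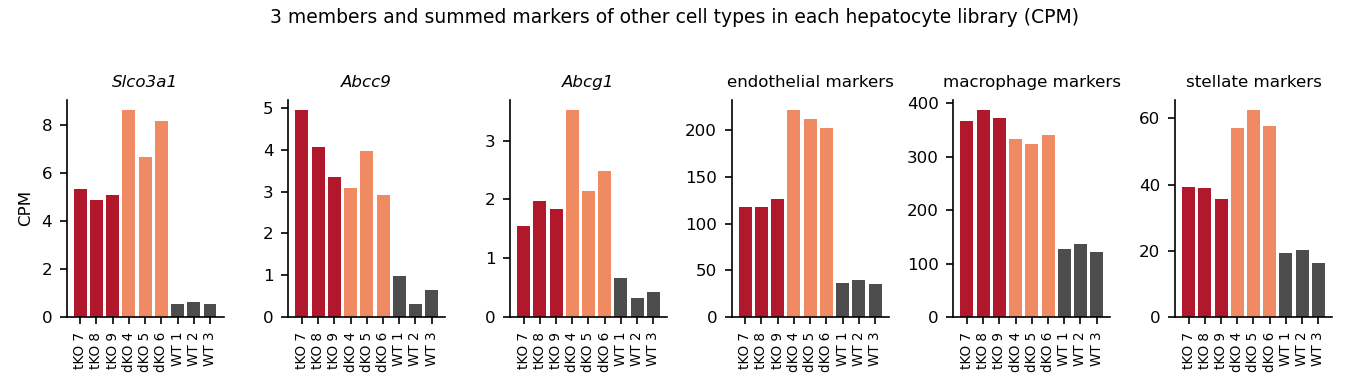
CPM of Slco3a1, Abcc9 and Abcg1 and summed CPM of the endothelial, macrophage and stellate markers in each of the 9 hepatocyte libraries, one bar per library. The sums are relative to the library total, without the TMM factor used for the genes. In all 6 panels every tKO and dKO bar stands above every WT bar. The macrophage sum is mostly Cd68 and Mpeg1.

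In liver, no member was called in SMSrKO against WT. All 58 members tested by edgeR's quasi-likelihood test had an adjusted p above 0.05, where 0.234% of all 15820 genes tested were called. At an unadjusted p under 0.05 there were 7 members called, beside 13.1% of all genes, DESeq2 called 3 and edgeR without the count filter called 2. The median log2 fold change of the members was -0.00. The groups did not overlap for 3 of the members tested, Slco1a4, Slc22a30 and Abcg2, beside 8.12% of all genes. The 12 endothelial markers summed to 680 to 940 CPM in SMSrKO and 793 to 1062 CPM in WT livers, and macrophage and stellate sums overlapped as well. Of 6 erythroid markers, 5 were tested and all 5 had a fold change below 0, 4 of them at an unadjusted p under 0.05 by edgeR, with a median log2 fold change of -1.68 and sums of 38.7 to 46.7 CPM in SMSrKO and 43.0 to 156 CPM in WT livers. The 5 tested of 7 neutrophil markers were likewise all below 0, with a median of -1.18, and the list summed to 6.59 to 33.8 CPM in SMSrKO and 20.9 to 51.2 CPM in WT livers. The hepatocyte marker list summed to 81260 to 93170 CPM in SMSrKO and 66250 to 75080 CPM in WT livers, without overlap. The part of these cell types in the results was not tested. No gene of the lists of cell types or of sex-linked expression was called in liver.

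Slco1a4 stood at 137, 220.3, 207 and 226 CPM in SMSrKO livers and at 95, 80.2, 121 and 105 CPM in WT livers. Every SMSrKO library was above every WT library, although SMSrKO 5 lay close to the highest WT library. The log2 fold change was 0.98 ± 0.18 (edgeR adjusted p = 0.0680), and without SMSrKO 5 it was 1.12 and was called (0.0290). Slc22a30 stood at 119, 117, 122 and 106 CPM in SMSrKO and 78.9, 69.1, 92.8 and 81.0 CPM in WT livers. That is a log2 fold change of 0.53 ± 0.10 (edgeR adjusted p = 0.0698), and the groups were apart. Without the count filter the adjusted p was 0.0332 for Slco1a4 and 0.0241 for Slc22a30.

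Abcg2 stood at 33.6, 39.4, 36.2 and 33.5 CPM in SMSrKO livers and 42.3, 47.1, 52.5 and 48.6 CPM in WT livers. All SMSrKO libraries were below the WT libraries, with a log2 fold change of -0.42 ± 0.09 (edgeR adjusted p = 0.103) that was -0.47 and called without WT 1 (0.0331). Slc22a26 stood at 172, 89.0, 137 and 170 CPM in SMSrKO livers and 147, 80.9, 91.1 and 57.9 CPM in WT livers, so that the groups overlapped widely (0.59 ± 0.30, edgeR adjusted p = 0.445). Its hepatocyte levels in tKO and dKO were below WT.

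The WT 1 liver library stood apart for several members. Abca2 was at 43.6, 44.5, 49.2 and 37.4 CPM in SMSrKO livers and at 70.2, 48.5, 49.8 and 48.5 CPM in WT livers. Abcd2 was at 92.7, 92.1, 79.5 and 96.4 CPM in SMSrKO livers and at 34.2, 74.2, 78.2 and 81.7 CPM in WT livers. Slc22a7 was at 10.2, 3.56, 4.74 and 1.89 CPM in SMSrKO livers and at 24.3, 6.46, 5.04 and 3.23 CPM in WT livers. None of these 3 was called, and the estimate for Slc22a7, -0.97 ± 0.74 on the log2 scale, was 0.03 without WT 1. Abcc12, at 0.22, 0.32, 1.31 and 1.18 CPM in SMSrKO and 0.52, 2.78, 0.79 and 3.98 CPM in WT livers, varied more within a group than between groups.

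**Figure D5:**
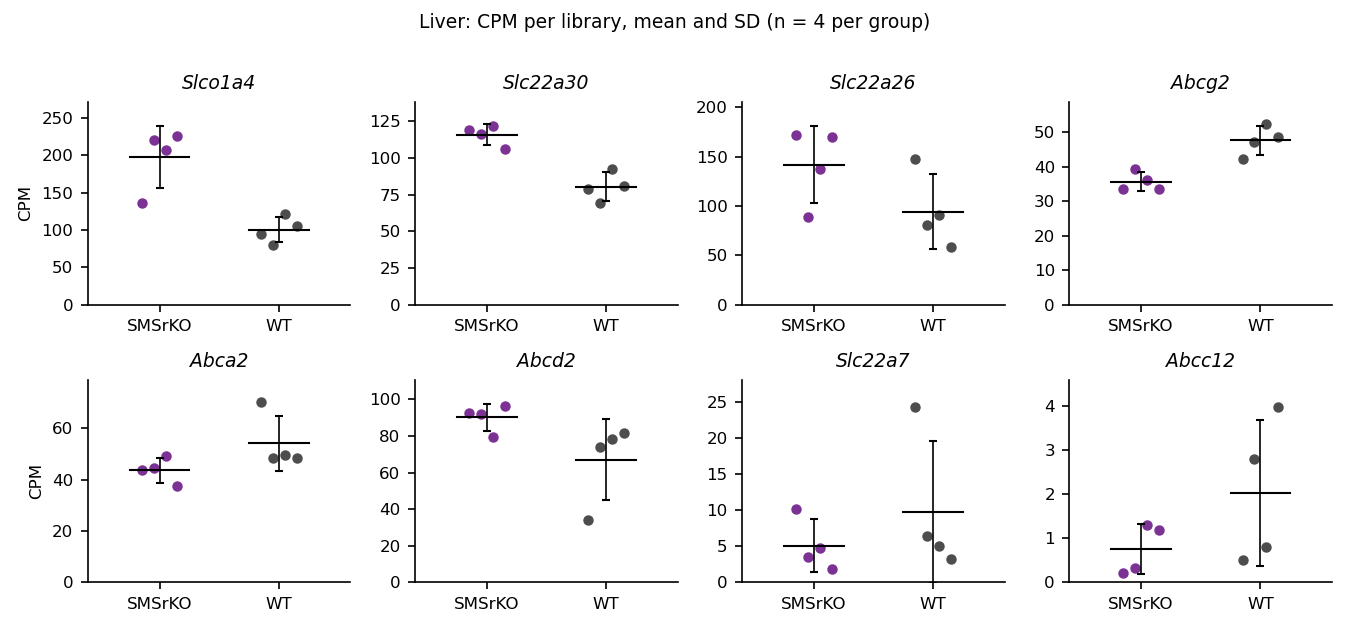
CPM of 8 members in each liver library, with the mean and SD of the 4 SMSrKO and the 4 WT libraries. Slco1a4 and Slc22a30 were higher and Abcg2 lower in every SMSrKO library than in any WT library, and the first WT library was far from the other 3 for Abca2, Abcd2 and Slc22a7.

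For other named liver members SMSrKO and WT overlapped, and intervals bound the change. For Abcc2 the 95% interval of the log2 fold change was -0.10 to 0.38, for Abcd3 -0.30 to 0.35, for Abcg5 -0.09 to 0.52 and for Abcg8 -0.07 to 0.46. Abcb1b, which was raised in tKO and dKO hepatocytes, was scarce in liver, at 0.56 to 1.41 CPM in SMSrKO and 0.65 to 3.05 CPM in WT livers. Abcc9 and Abcg1 were more abundant in liver than in hepatocytes relative to the library, at 48.9 to 66.9 and 15.3 to 25.9 CPM in SMSrKO livers and 41.5 to 54.1 and 16.7 to 36.1 CPM in WT livers.

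Genes around the members were counted from lists of related genes. Of 17 regulators of transporter genes, such as nuclear receptors, all were tested in hepatocytes, and 10 were higher and 4 lower in tKO and 10 higher and 3 lower in dKO against WT. Among them the pregnane X receptor Nr1i2 had the log2 fold changes 0.68 in tKO and 0.42 in dKO against WT (edgeR adjusted p = 9.4e-05 and 0.0210), and the liver-enriched factor Hnf4a 0.13 and -0.37 (0.0146 and 5.05e-10). Of 7 tested bile acid transporters outside the member list, 1 was higher and 4 lower in tKO against WT, and likewise in dKO. The bile salt export pump Abcb11 had the log2 fold changes 0.19 in tKO and -0.76 in dKO against WT, and the uptake carrier Slco1a1 -1.11 and -1.93. Peptide transporters for antigen presentation, Tap1 and Tap2, and their partner Tapbp were higher in both groups, 3 of 3 tested. Of 13 other drug and solute carriers tested, 2 were higher and 4 lower in tKO and 4 higher and 3 lower in dKO against WT. Of 9 tested partners of Abca1 and Abcg1 in cholesterol handling, 5 were higher and 2 lower in each. Over all genes tested, 25.6% were higher and 21.8% lower in tKO against WT, and 24% and 20% in dKO against WT. Nr0b2, Mylip and Slc15a3 of these lists passed the filter only through the knockout groups. In liver none of the genes of these 5 lists was called. At an unadjusted p under 0.05 by edgeR there were 4 of 17, 2 of 8, 0 of 4, 0 of 15 and 2 of 9 tested, beside 13.1% of all genes.

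The remaining members were at the edge of detection. In liver 20 members did not pass the count filter, with at most 30 counts in a library. In hepatocytes 11 members were listed in no file and 16 did not pass, with at most 15 expected counts in a library. Slco4a1, a carrier of thyroid hormone, was one of these, with 1, 3 and 3 expected counts in tKO, 6, 6 and 8 in dKO and 1, 0 and 1 in WT libraries, too few for a test. Slc22a13 likewise had 5, 9 and 7 expected counts in tKO, 1, 3 and 1 in dKO and 0, 3 and 0 in WT libraries. Abcc8, the potassium channel subunit of pancreatic beta cells, was the one member found in hepatocytes and not in liver, with 1 expected count in each of 4 libraries.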

How the data were processed

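RNA sequencing libraries of mouse liver (4 SMSrKO, 4 WT) and isolated hepatocytes (3 tKO, 3 dKO, 3 WT) were analysed from gene tables. Per the file headers, the authors deposited raw counts with TPM for liver and expected counts with FPKM for hepatocytes, where 6.25% of the values were not whole and were rounded here. The builds GRCm38 and mm10, DESeq2 1.30.1, Bowtie2 2.2.5, Trimmomatic 0.36 and STAR 2.5.2b are named in the submitters' processing notes. Strand setting and counting program: not given in the sources used here. Groups follow the labels.

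Counts were scaled by TMM and tested with edgeR 4.0.16 (R 4.3.3; quasi-likelihood F test, robust) after filterByExpr with a minimum count of 10, separately for liver and for all 9 hepatocyte libraries together, with Benjamini-Hochberg adjustment over all genes and a threshold of 0.05. The SE is the log2 fold change divided by the root of F. Levels between genes were compared in TPM or FPKM, and the share of 50-base stretches held by other transcripts used GENCODE M21. The procedure was tested on simulated data. Alternatives used DESeq2 1.42.0, limma 3.58.1 (voom, or log2 of TPM or FPKM plus 0.5 or 0.1), other scalings, no filter, 2-group fits, the liver dispersion and the omission of each library.

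Members, gene lists and tests were chosen with earlier results of these data known. Values in every library were given, by subfamily, for up to 3 called members with the largest change per hepatocyte comparison and a mean of at least 1 CPM in a group, up to 3 with the smallest p in liver, and the most abundant. A few members are counted but not reported here. Members outside that rule were chosen after their values were seen.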

Additional observations from a re-analysis of the deposited data

Results flagged for a closer look

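In WT livers, 4 single values lay far from the other 3 libraries of their group, by Dixon's test at the 95% level. All but the Abcb9 value were in the WT 1 library. Abca2 was at 70.2 CPM there, with the other WT livers at 48.5 to 49.8 CPM, Abcd2 was at 34.2 CPM, with the others at 74.2 to 81.7 CPM, and Slc22a7 was at 24.3 CPM, with the others at 3.23 to 6.46 CPM. Abcb9, a lysosomal peptide transporter, was at 4.34 CPM in WT 2, with the others at 5.31 to 5.34 CPM. Chance gives such a value in about 1 in 20 groups, and 52 liver groups were examined.

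The values of Slco1a4 lay in opposite directions where SMSr was removed. Its log2 fold change was 0.98 in SMSrKO against WT liver, which was not called (edgeR adjusted p = 0.0680), with every SMSrKO library above WT, and -0.70 in tKO against dKO hepatocytes, with every tKO library below dKO. The difference between these effects was not tested, and tissue, diet and age differ between the experiments.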

How the results depend on the processing

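Of the alternative values of counts and shares, 126 stayed within 1.5 times the reported count or within 1 SD of the reported share, and 22 moved further. In liver, 0 members were called by edgeR, 2 without the count filter and 3 by DESeq2, and leaving out each library gave 0 to 1 called and 0 to 1 called with a 2-fold change. Over all genes those liver settings gave 37, 136 and 451 calls, and 11 to 109 with a library left out. With the liver dispersion, members called were 9 in tKO and 9 in dKO against WT and 5 in tKO against dKO (1221, 1055 and 326 of all genes). Calls of at least 2-fold were 3 in tKO and 3 in dKO against WT with limma on log2(FPKM + 0.5). In tKO against dKO they were 5 without the count filter and 3 to 5 with a library left out, the 5 without tKO 8. Measured in CPM, with TMM scaling or relative to the library total, the Slc22 share was 19.0% in SMSrKO and 18.8% in WT livers, and 16.5% in dKO and 17.4% in WT hepatocytes, and the share of Abce and Abcf was 20.6% in tKO hepatocytes. Of the alternative values of single members, 1305 kept their direction and side of the threshold, 58 lost the call, 7 gained it and 1 turned round. That one was in liver: with each library left out, the log2 fold change of Slc22a7 ran over -1.54 to 0.0298, positive without WT 1. The cause was not tested. Depth limits members under about 10 counts a library. No paired analysis was possible because the groups compared share no replicate numbers.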
